A study of Homo sapiens with 4 samples.

Results

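The baseline expression profile of control U251 cells consists of 2 Ctrl libraries, out of 4 in the series, and of all genes in them ordered by level. U251 is an established human glioblastoma (GBM) cell line. The Ctrl cells carried the pGreen control vector, named Ctrl in the genotype label. The paper describes its control cells for RNA-seq as treated with lenti-shCtrl, a lentiviral control hairpin. The other 2 libraries came from knockdown cells and were not compared here. The cells were grown as one line in DMEM with fetal bovine serum, so the profile is that of 1 line in culture and of no tumor tissue. The study gives a time after knockdown for its RNA-seq comparison, and the labels give no time. The labels also do not say whether the 2 Ctrl libraries came from separate cultures. The SD over 2 libraries given below may therefore be technical.

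The members were all entries of the gene count table, taken from the 2 Ctrl columns alone. Leaving out 1 entry that was given in duplicate, there were 15575 genes, and 15284 of them had at least 1 count in a Ctrl library. The table lists only genes with a count in at least 1 of the 4 libraries, and it lists 0 genes of the mitochondrial genome. A gene without an entry was not analysed here. Total counts were 27405629 in Ctrl replicate 1 and 27221921 in Ctrl replicate 2. Levels are CPM, counts scaled to a common library total, which rank genes by their share of the counts. Expression levels of different genes are compared as CPM per kilobase of exon. A count of 0 in a library of this depth allows a level of up to 0.109 CPM in replicate 1 and 0.110 CPM in replicate 2, where 3 counts would stand, and this limit covers counting error only.

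GBM is the most aggressive glial tumor of the adult brain, and its cells can resemble astrocytes, neural progenitors or mesenchymal cells. Mesenchymal GBM cells are known for matrix proteins, CD44 and wound-response genes. Tumor cells commonly take up much glucose and turn it into lactate even when oxygen is present.

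At the depth of these libraries, most listed genes were detectable. A mean of at least 1 CPM, the level used here to call a gene expressed, was reached by 12152 genes, or 78.0% of those listed. Each count of list members at 1 CPM or more given below is to be read beside this share. The lists were chosen with earlier results of these data known, so their medians describe the chosen genes alone. There were 9457 genes at 10 CPM or more, 2324 at 100 CPM or more (14.9%) and 75 at 1000 CPM or more. The median listed gene stood at 19.9 CPM, or 3.53 CPM per kilobase. At the other end, 1388 genes (8.91%) had at most 3 counts in each library, and 291 had 0 counts in both. The 914 genes with the highest levels held 50% of all counts, and the 10 highest held 6.10% and 6.16% of the counts of the 2 libraries. Protein-coding genes took 99.2% of the counts in each library and long noncoding RNAs took 0.479% and 0.477%. The table lists 14553 protein-coding genes and only 279 long noncoding RNAs, so these shares depend on which genes it lists.

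**Figure D1:**
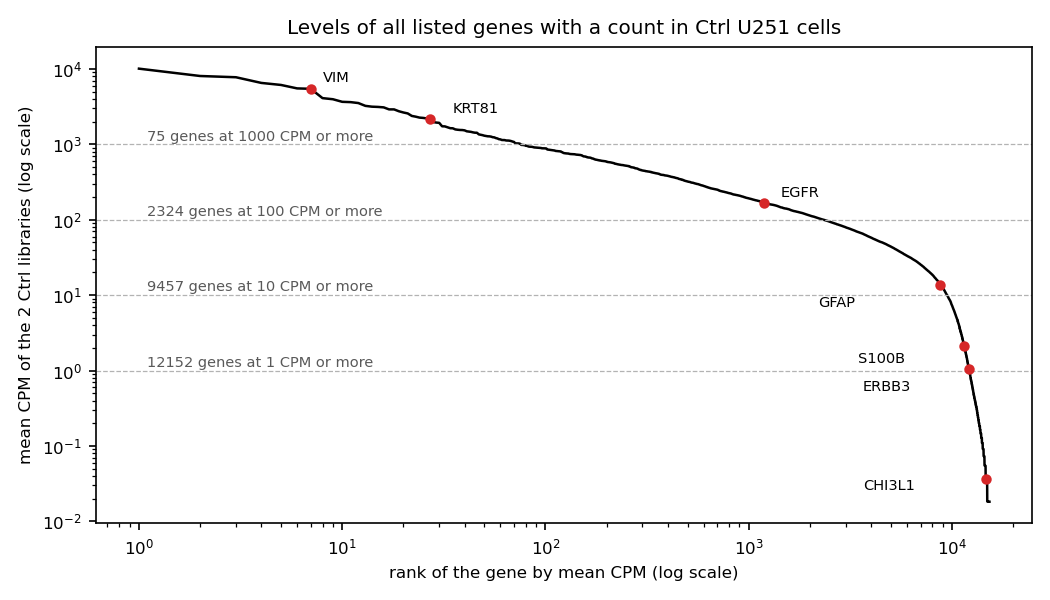
Mean CPM of the 2 Ctrl libraries against the rank of each gene, both on log scales, with dashed lines at 1, 10, 100 and 1000 CPM and 7 genes marked. The curve is shallow over the first 2324 genes, which stand at 100 CPM or more, and then falls steeply, with VIM near the top, GFAP at 13.8 CPM and CHI3L1 at 0.0367 CPM.

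The 2 Ctrl libraries differed slightly more than counting error alone. Over 13709 genes with at least 10 counts in the libraries together, chi-square was 1.42 per degree of freedom, where counting error gives 1. Among genes at 1 CPM or more, the median difference between the libraries was 3.35% of the mean, and 111 genes differed by over 1.5-fold. The 5 genes with the largest chi-square (MAGED4, U2AF1L5, RGPD5, U2AF1 and SMIM11B) have near-identical copies. MAGED4 had 110 and 588 counts and MAGED4B had 2012 and 1465, but their sums were 2122 and 2053. U2AF1, a splicing factor subunit, had 1229 and 2044 counts and its copy U2AF1L5 had 1785 and 965, with sums of 3014 and 3009. SMIM11B had 0 and 163 counts and SMIM11A had 204 and 66, with sums of 204 and 229. RGPD5 had 81 and 399 counts and RGPD6, its copy, had 1700 and 1305, with sums of 1781 and 1704. The chi-square of the sums was between 0.0386 and 1.62, against 49.3 to 331 for the 8 single genes. The levels of such single entries are uncertain.

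The genes with the most counts belonged to the cytoskeleton, translation, glycolysis and the extracellular matrix. ACTB, cytoplasmic beta-actin, had 10022 CPM in replicate 1 and 10158 CPM in replicate 2. EEF1A1, the elongation factor that brings tRNA to the ribosome, had 8083 and 8044 CPM, and FLNA, which crosslinks actin filaments, had 7670 and 7854 CPM. These 3 genes held the largest shares of the counts. Others among the 20 highest were ACTG1, MYH9 and ACTN4 of the actin network, the tubulins TUBB and TUBA1B, the glycolytic enzymes PKM, GAPDH and ENO1, the elongation factor EEF2 and the iron storage chain FTL. The matrix and secreted genes THBS1, COL1A2, IGFBP5 and SPARC, the filament gene VIM and ANXA2, a membrane-binding annexin, were also among them.

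The order changed when length was considered. Per kilobase, FTL, the light chain of ferritin, was highest at 3286 and 3394 CPM per kilobase, followed by ACTB at 2275 and 2306 and by TMSB10, a small actin-sequestering peptide, at 2056 and 1986. RPPH1, the RNA of ribonuclease P, had 1747 and 1709 CPM per kilobase. FTH1, TMSB4X, S100A6, RPS2, RPS12 and HSP90AB1 also entered the 20 highest per kilobase. Many of the highest genes have annotated pseudogenes. FTL has 16, FTH1 has 25, GAPDH has 65, EEF1A1 has 49, RPS2 has 25, ACTG1 has 21, RPS12 has 19 and ACTB has 12. How reads that match several places were counted is not given in the sources used here.

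Astrocyte identity was partial in Ctrl U251 cells. Of 14 astrocyte markers, 13 were listed and 9 reached 1 CPM, against 78.0% of all listed genes, with a median of 1.23 CPM per kilobase against 3.53 for all genes. SOX9, a transcription factor of glial fate, was the highest of them per kilobase, and it had 247 and 246 CPM. GJA1, the connexin that joins astrocytes in gap junctions, had 174 CPM in both libraries. SLC1A3, a glial glutamate transporter, had 84.4 and 87.4 CPM.

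Other markers of the same list had lower levels, and they are set apart here with their values known. GFAP, the astrocyte intermediate filament, had 13.3 and 14.4 CPM, and 19.9% of its exon length overlaps CCDC103. S100B, a calcium-binding protein of astrocytes, had 2.04 and 2.17 CPM. SLC1A2, the main glutamate transporter of mature astrocytes, had 5 and 11 counts, and ALDH1L1, a folate enzyme, had 5 and 7 counts. AQP4, the water channel of astrocyte endfeet, had 0 counts in both libraries. Per kilobase, SOX9 stood at 62.7 ± 0.156 (SD, n = 2) and GFAP at 1.23 ± 0.0727.

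Of 14 neural stem and progenitor markers, 13 were listed and 10 reached 1 CPM, a share near the 78.0% of all listed genes. NES (nestin), the progenitor filament, had 795 and 787 CPM. SOX2, which maintains neural stem cells, had 174 and 171 CPM, and POU3F2, a neural POU factor, had 209 and 204 CPM. These 3 genes were also the highest of the list per kilobase, in the order NES, SOX2 and POU3F2. PROM1, which encodes the surface marker CD133, had 4 and 0 counts. PAX6 had a mean of 21.4 CPM, and 25.4% of its exon length overlaps ELP4 on the opposite strand, so that its reads cannot be told from those of ELP4 without knowledge of strand.

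Of 12 oligodendrocyte lineage markers, 8 were listed and 4 reached 1 CPM. CNP, a myelin enzyme that is also found in other cells, was the highest at 19.2 CPM per kilobase, followed by PDGFRA, the receptor of oligodendrocyte precursors, at 3.58. MAG had 0 counts in both libraries, and MBP had 3 counts in each. Of 14 neuron markers, 11 were listed and 8 reached 1 CPM. NEFL, the light neurofilament chain, had 1538 and 1529 CPM and TUBB3, the neuronal beta-tubulin, had a mean of 327 CPM. The synaptic genes SNAP25 and SYP had means of 3.70 and 0.660 CPM, and STMN2 had 1 and 0 counts.

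Markers of other cell types were counted in the same way. Of 14 microglia and leukocyte markers, 7 were listed and 2 reached 1 CPM. CD68, a lysosomal protein, had 24.3 and 25.9 CPM and CSF1R had a mean of 5.40 CPM, while PTPRC, which encodes CD45, had 5 and 2 counts. Of 10 endothelial markers, 7 were listed and 5 reached 1 CPM, led by KDR, a VEGF receptor, at 20.3 and 22.5 CPM. Of 10 markers of pericytes and smooth muscle, 9 were listed and 5 reached 1 CPM, and 34.1% of the exon length of the highest per kilobase, TAGLN, overlaps PCSK7. Of 10 epithelial markers, 9 were listed and 5 reached 1 CPM, with KRT18 highest at 10.7 and 11.2 CPM per kilobase. KRT18 has 68 annotated pseudogenes, and 17.1% of its exon length overlaps KRT8 on the opposite strand. CDH1, E-cadherin, had 0 counts in both libraries.

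**Figure D2:**
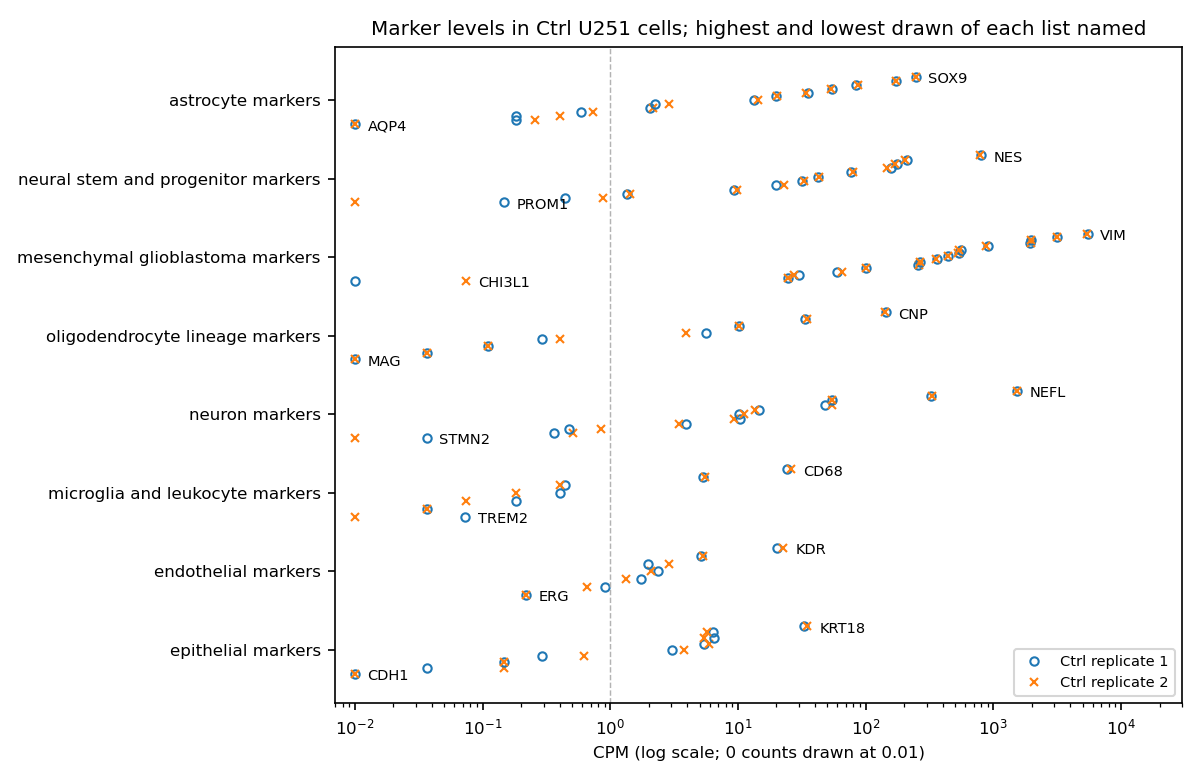
CPM of the markers on a log scale in Ctrl replicate 1 (circles) and Ctrl replicate 2 (crosses), grouped by cell type list, with 0 counts drawn at 0.01 CPM and a dashed line at 1 CPM. The mesenchymal GBM markers lie furthest to the right, from 24.7 to 5452 CPM apart from CHI3L1, while the other lists run from over 10 CPM down to at most 0.220 CPM.

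Mesenchymal GBM markers were the most strongly expressed of the identity lists by median level. All 17 were listed, 16 reached 1 CPM and 13 reached 100 CPM, and the median was 122 CPM per kilobase against 3.53 for all genes. VIM (vimentin) was the highest, at 5459 and 5445.5 CPM. CD44, the hyaluronan receptor, had 1977 and 1979 CPM, and TGFBI, a matrix protein induced by TGF-beta, had 1939 and 1953 CPM. S100A6, LGALS1, ANXA2 and S100A10 stood between 256 and 912 CPM per kilobase. The exception was CHI3L1, a secreted glycoprotein much used as a mesenchymal marker, which had 0 and 2 counts.

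The transcription factors linked to the mesenchymal state were also present. All 13 listed of 14 reached 1 CPM, with a median of 15.5 CPM per kilobase. FOSL2 and BHLHE40 led at 63.7 and 61.2 CPM per kilobase, followed by CEBPB at 20.2 and STAT3 at 19.0. The EMT factors SNAI2, ZEB1, ZEB2 and TWIST1 lay between 2.84 and 16.6 CPM per kilobase, and SNAI1 was the lowest at 0.762.

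Of 19 intermediate filament genes, 16 were listed and 13 reached 1 CPM. The highest per kilobase was KRT81, a keratin of hair, at 1146 and 1133 CPM per kilobase, next to VIM at 1055 and 1052. KRT81 lies on chromosome 12 at 52679697-52685318 (GRCh37, minus strand), and it had 60603 and 59475 counts. Its neighbour KRT80 had 348 CPM in both libraries. KRT86 and KRT83, hair keratins of closely similar sequence that were looked at after the level of KRT81 was seen, had 15.9 and 0.201 CPM, and reads shared among the 3 could have been assigned to any of them. The lamins LMNB2, LMNA and LMNB1 of the nuclear envelope stood at 119, 85.2 and 50.4 CPM per kilobase.

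The promoter is the stretch of DNA where transcription starts, and promoters of broadly used genes are often rich in CG dinucleotides. Of 14507 listed protein-coding genes with a canonical start, 11185 had a symbol in the RefSeq promoter table, and for 10564 the stretch of 300 bases, from 250 before the start to 50 after it, was identical in RefSeq and GRCh37. The median number of CG dinucleotides fell with the level of the gene, from 31 in 1771 genes at 100 CPM or more, through 28 in 5318 genes at 10 to 100 CPM, 24 in 1766 genes at 1 to 10 CPM and 16 in 1135 genes between 3 counts and 1 CPM, to 8 in 574 genes with at most 3 counts in each library. The median over all was 27. The letters TATAAA on either strand stood in 5.25%, 3.70%, 7.02%, 11.1% and 17.9% of these promoters in the same order, and in 6.09% of all of them. Genes were not independent in this description, and no test was made.

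The promoters of 7 genes are shown with every CG in capitals, 5′ to 3′ on the strand of the gene, to set genes with high levels beside genes near 0. SOX2 (173 CPM) and EPHA2 (786 CPM), a receptor tyrosine kinase, are expressed and have 20 CG each. AXL (1027 CPM) and ANXA1 (545 CPM) are expressed at high levels with 7 and 0 CG. GRIK3, a kainate receptor with 1 and 2 counts, has 37 CG, while AQP4 and CHI3L1 have 4 and 7. SOX2 (chr3:181429463-181429762, GRCh37, plus strand), EPHA2 (chr1:16482515-16482814, minus), AXL (chr19:41724878-41725177, plus), ANXA1 (chr9:75766531-75766830, plus), GRIK3 (chr1:37500067-37500366, minus), AQP4 (chr18:24445622-24445921, minus) and CHI3L1 (chr1:203155783-203156082, minus) read as follows.
SOX2: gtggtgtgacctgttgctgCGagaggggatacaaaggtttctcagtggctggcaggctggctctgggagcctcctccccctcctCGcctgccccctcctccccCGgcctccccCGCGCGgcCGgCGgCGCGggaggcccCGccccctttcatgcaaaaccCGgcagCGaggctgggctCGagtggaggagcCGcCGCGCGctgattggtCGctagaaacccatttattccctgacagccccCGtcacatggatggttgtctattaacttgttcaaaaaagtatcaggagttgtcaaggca
EPHA2: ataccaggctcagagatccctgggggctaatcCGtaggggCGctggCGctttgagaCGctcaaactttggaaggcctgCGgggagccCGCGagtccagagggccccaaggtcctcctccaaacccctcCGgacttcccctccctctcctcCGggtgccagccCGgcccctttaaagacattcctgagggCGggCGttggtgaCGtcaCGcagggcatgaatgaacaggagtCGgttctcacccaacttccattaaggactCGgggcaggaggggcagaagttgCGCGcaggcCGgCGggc
AXL: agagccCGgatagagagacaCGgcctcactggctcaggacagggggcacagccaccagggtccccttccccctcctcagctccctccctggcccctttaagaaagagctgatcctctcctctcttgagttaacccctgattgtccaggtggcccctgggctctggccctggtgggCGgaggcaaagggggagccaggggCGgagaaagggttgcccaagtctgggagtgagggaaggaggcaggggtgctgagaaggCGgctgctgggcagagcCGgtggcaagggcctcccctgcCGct
ANXA1: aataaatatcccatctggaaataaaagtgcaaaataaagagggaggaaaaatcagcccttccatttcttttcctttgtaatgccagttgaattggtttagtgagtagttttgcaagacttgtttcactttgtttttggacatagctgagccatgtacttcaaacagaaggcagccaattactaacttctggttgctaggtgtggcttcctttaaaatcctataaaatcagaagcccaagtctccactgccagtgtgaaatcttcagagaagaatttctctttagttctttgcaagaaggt
GRIK3: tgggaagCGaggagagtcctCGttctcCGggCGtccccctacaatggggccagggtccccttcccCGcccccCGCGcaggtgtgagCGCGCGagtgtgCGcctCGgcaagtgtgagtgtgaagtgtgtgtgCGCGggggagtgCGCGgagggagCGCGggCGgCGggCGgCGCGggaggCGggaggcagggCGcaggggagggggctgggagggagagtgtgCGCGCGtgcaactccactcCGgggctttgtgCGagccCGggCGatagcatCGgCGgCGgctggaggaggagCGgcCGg
AQP4: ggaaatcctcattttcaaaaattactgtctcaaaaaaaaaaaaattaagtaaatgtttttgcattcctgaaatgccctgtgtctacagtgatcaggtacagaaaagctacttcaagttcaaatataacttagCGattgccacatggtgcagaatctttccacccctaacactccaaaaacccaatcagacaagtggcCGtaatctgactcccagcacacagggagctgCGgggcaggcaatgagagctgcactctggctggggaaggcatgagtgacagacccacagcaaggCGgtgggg
CHI3L1: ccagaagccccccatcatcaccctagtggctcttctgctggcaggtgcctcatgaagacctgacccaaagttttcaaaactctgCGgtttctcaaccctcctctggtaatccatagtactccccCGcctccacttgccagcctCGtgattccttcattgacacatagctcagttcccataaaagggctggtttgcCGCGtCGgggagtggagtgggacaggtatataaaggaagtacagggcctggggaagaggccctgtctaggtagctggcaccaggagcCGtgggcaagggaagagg

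In the sequences printed, TATAAA on the strand of the gene begins 31 bases before the start in ANXA1 and 27 bases before it in CHI3L1, and the other 5 promoters do not hold these letters on either strand. ANXA1 at 545 CPM and CHI3L1 at 0.0367 CPM thus stood at opposite ends of the profile with the same letters at a similar place. GRIK3, with the most CG of the 7, was among the genes with at most 3 counts in each library. GRIK3 lay above the median of its class. SOX2, EPHA2, AXL and ANXA1 all lay below the median of 31 of the class at 100 CPM or more, and below its lower quartile of 23. AQP4, with 4 CG, lay below its class median of 8, and CHI3L1, with 7 CG, was close to it.

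The matrix and secreted genes on the list, which was chosen with earlier results of these data known, were mostly expressed at high levels. Of 40 on the list, 39 were listed, 35 reached 1 CPM and 25 reached 100 CPM, with a median of 32.8 CPM per kilobase against 3.53 for all genes. THBS1 (thrombospondin 1) had 5495 and 5550 CPM, and COL1A2, the alpha 2 chain of type I collagen, had 3524 and 3537 CPM. COL1A1, the chain that pairs with it, had 56.3 and 59.5 CPM. Per kilobase, COL1A2 stood at 327 ± 0.887 and COL1A1 at 6.43 ± 0.246 (SD, n = 2), and COL3A1, the fibrillar collagen of soft tissue, stood at 0.0948 ± 0.0119. The 2 chains of type I collagen thus stood at unequal levels in both libraries.

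Among proteases, MMP14, a membrane-bound metalloproteinase, had 323 and 334 CPM and MMP2, a gelatinase, had 158 and 160 CPM. MMP9, the other gelatinase, had 0 counts in both libraries, and MMP1 had 2 and 1 counts. The inhibitor TIMP2 stood at 62.3 CPM per kilobase and TIMP1 at 43.1. Of cytokines on the list, CXCL8, a neutrophil attractant, and LIF stood at 59.9 and 32.5 CPM per kilobase, and IL6 and IL1B at 3.18 and 0.578. The matricellular genes CCN2 and CCN1, known targets of YAP, stood at 465 and 342 CPM per kilobase.

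Receptor tyrosine kinases bind growth factors outside the cell and signal through their kinase domain, and EGFR, PDGFRA and MET are the best known of them in GBM. Of 58 on the list, 48 were listed, 33 reached 1 CPM and 10 reached 100 CPM, where 78.0% and 14.9% of all listed genes did. AXL, the receptor of GAS6, was the highest at 200 CPM per kilobase in both libraries, and EPHA2, an ephrin receptor, followed at 188 and 192. MET, the receptor of hepatocyte growth factor, had 61.0 and 61.1. PTK7, a pseudokinase, had 26.4 and 26.8, EPHA3 had 23.4 and 22.9, DDR1, a collagen receptor, had 23.1 and 22.6, EPHB4 had 21.9 in both, IGF1R had 20.2 in both, and EPHB2 had 13.9 in both. EGFR was in position 10 at 10.7 and 10.5 CPM per kilobase. In this order the lower value of each receptor was above the higher value of the next, except for EPHA3 and DDR1, whose ranges over the 2 libraries overlapped.

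The ranks of PTK7, EPHA3, DDR1, EPHB4, EPHB2 and EGFR depend on the length used. With the longest transcript in place of all exons, AXL, EPHA2 and MET kept positions 1 to 3, DDR1 moved to position 4 with 50.2 CPM per kilobase, and EGFR to position 9 with 17.1. Further down, FGFR3, DDR2, ERBB2, TYRO3, FGFR1 and PDGFRA lay between 3.58 and 6.90 CPM per kilobase. ERBB3, ERBB4 and MERTK lay at 0.0907, 0.0676 and 0.115. The lowest receptor listed was EPHB6, with 0.00688 CPM per kilobase.

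**Figure D3:**
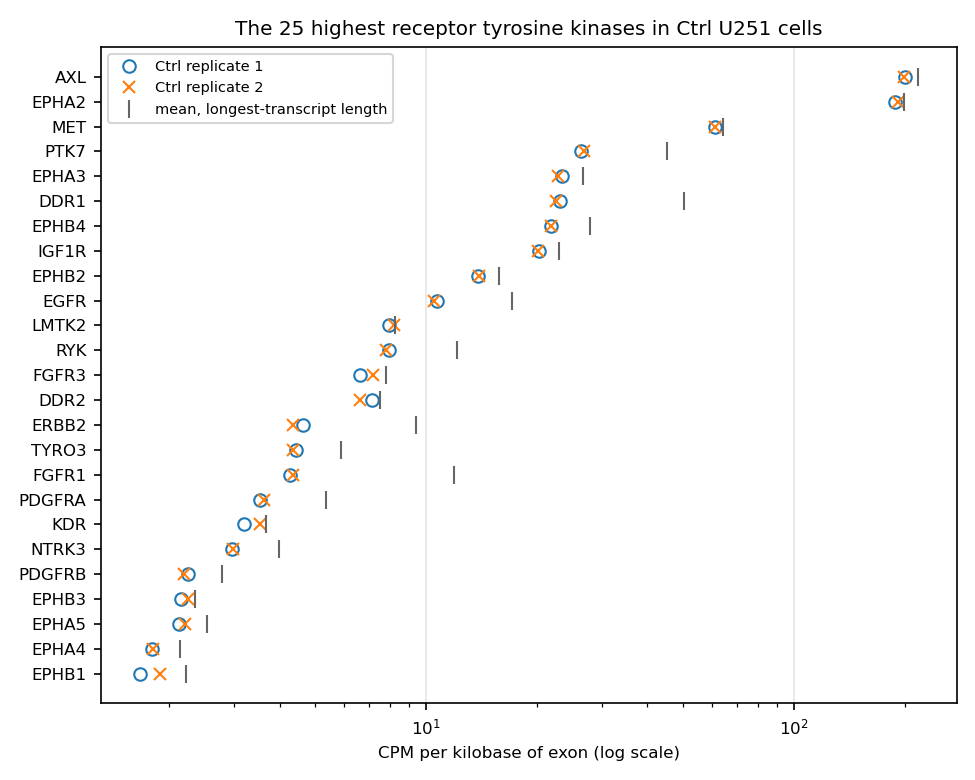
CPM per kilobase of exon, on a log scale, of the 25 highest receptor tyrosine kinases in Ctrl replicate 1 (circles) and Ctrl replicate 2 (crosses), with the mean by longest-transcript length as a vertical mark. AXL and EPHA2 stand near 200, MET at 61.0 and EGFR at 10.6 by exon length, and the marks show that DDR1, PTK7, FGFR1 and ERBB2 shift most with the choice of length.

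Ligands were measured beside the receptors. Of 27 growth factor ligands, 25 were listed and 21 reached 1 CPM. GAS6, the ligand of AXL, had 152 and 153 CPM, so both members of that pair were expressed. HGF, the ligand of MET, had 3 counts in each library, and IGF1, the ligand of IGF1R, had 8 and 7 counts, with 82.5% of its exon length overlapping HELLPAR. For EGFR, the ligands EGF, TGFA and HBEGF had means of 24.5, 27.9 and 26.1 CPM. NRG1, the ligand of ERBB3 and ERBB4, had 156 and 160 CPM, while ERBB3 had 27 and 31 counts. EFNA1, a ligand of EPHA2, had 6.24 and 7.38 CPM, and EFNB2 and its receptor EPHB4 had 163 ± 3.18 and 141 ± 0.127 CPM. VEGFA, the angiogenic factor, had a mean of 191 CPM and its receptor KDR 21.4 CPM. MET and IGF1R were thus expressed in libraries with at most 8 counts of HGF or IGF1. NRG1 was expressed beside ERBB3 at a mean of 1.06 CPM, just above the level used to call a gene expressed. ERBB4 stood at 0.0676 CPM per kilobase.

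Of 26 cytokine and death receptors, 22 were listed and all 22 reached 1 CPM. TNFRSF12A, the receptor of TWEAK, was the highest per kilobase at 168 CPM per kilobase, with 302 CPM in both libraries. IL13RA2, a decoy receptor studied as a glioma target, followed at 45.2, with 73.1 and 73.8 CPM. The IL-6 family receptors IL6ST, OSMR and LIFR had means of 224, 130 and 34.0 CPM and IL6R had 4.06 CPM. Among 14 receptors of the TGF-beta superfamily, 13 were listed and 11 reached 1 CPM, with TGFBR2 highest at 17.9 CPM per kilobase. Among Notch and Wnt receptors, 13 of 14 listed reached 1 CPM, and NOTCH2 led at 24.0 CPM per kilobase, above FZD6 at 21.4 and NOTCH1 at 6.27.

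Of 46 G protein-coupled receptors, 38 were listed and 26 reached 1 CPM, with a median of 0.841 CPM per kilobase against 3.53 for all genes. F2R, the thrombin receptor, was the highest at 42.1 and 41.9 CPM per kilobase, followed by the adhesion receptors ADGRE5 and ADGRG1 at 31.8 and 30.1 and by LGR4 at 22.4. CXCR4, a chemokine receptor often studied in GBM, had 18 and 13 counts. Of 49 neurotransmitter receptors, 27 were listed and 11 reached 1 CPM, and the median of those listed was 0.0603 CPM per kilobase. DRD2, a dopamine receptor, had a mean of 43.9 CPM, HTR7, a serotonin receptor, had 34.3 and 34.9 CPM, and GRIK2, a kainate receptor, had 28.0 and 25.9 CPM. Per kilobase DRD2 and HTR7 led at 10.7 and 9.96, followed by GLRB at 5.71.

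Integrins join cells to the matrix. Of 26 subunits, 25 were listed and 19 reached 1 CPM, a share near the 78.0% of all listed genes. ITGA3, a laminin-binding chain, was the highest at 1456 and 1472 CPM, or 149 CPM per kilobase, followed by ITGB4 at 108, ITGB1 at 47.5 and ITGAV at 25.6. The leukocyte subunits ITGAL and ITGAD had 0 counts in both libraries, and ITGAX and ITGB7 were at 0.0549 and 0.0366 CPM. Of 18 surface antigens studied in glioma, 17 were listed and all 17 reached 1 CPM. After EPHA2 the highest per kilobase were CD70, a ligand of the TNF family, at 133 and TFRC, the transferrin receptor, at 53.4. Of 40 nuclear receptors, 32 were listed and 27 reached 1 CPM, with PPARD highest at 36.7 CPM per kilobase.

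Glucose enters through transporters of the SLC2A family, is trapped by hexokinase, and is broken down to pyruvate, which lactate dehydrogenase reduces to lactate. Of 11 glucose transporters, 8 were listed and 7 reached 1 CPM. SLC2A1 (GLUT1), the transporter of most proliferating cells, had 631 and 639 CPM and held 84.5% ± 0.374 (SD, n = 2) of the summed CPM per kilobase of the family. SLC2A3 (GLUT3), the neuronal form, had 12.6 and 13.3 CPM and held 1.57%. HK1 had 481 and 492 CPM and held 91.7% ± 0.219 of the hexokinases, and HK2, the form often raised in tumors, had 29.1 and 28.2 CPM and held 6.28%. In both families a single gene held most of the summed level.

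Phosphofructokinase-1, the committed step, was mixed. PFKP, PFKL and PFKM held 42.3% ± 0.683, 37.7% ± 0.452 and 19.9% ± 0.231 of its summed level. Of the PFKFB enzymes, which set the level of the activator fructose-2,6-bisphosphate, PFKFB3 held 52.4% ± 0.246 and PFKFB4 45.0% ± 0.0691. With the longest transcript as the length, PFKFB4 was above PFKFB3, at 51.3% against 46.2%. ALDOA held 99.9% of the aldolases and ENO1 98.2% ± 0.144 of the enolases, while ALDOC and ENO2, the brain forms, held 0.0806% and 1.66%. GAPDH had 4078 and 4128 CPM and PKM, the muscle-type pyruvate kinase gene, had 6122 and 6146 CPM. TPI1, PGAM1, PGK1 and GPI stood at 334, 240, 134 and 48.2 CPM per kilobase.

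Of the lactate dehydrogenase chains, LDHB was the main one in these counts. LDHB, the heart-type chain, had 325 and 327 CPM and held 95.6% ± 0.338 of the summed level, and LDHA, the muscle-type chain that hypoxia induces in many tumors, had 32.3 and 29.0 CPM and held 4.45%. LDHA has 6 annotated pseudogenes and LDHB has 3, and the part of shared sequence in the level of LDHA was not tested. The lactate exporters SLC16A1 (MCT1) and SLC16A3 (MCT4) held 70.0% ± 0.744 and 28.2% ± 0.696 of their family. Of the pyruvate dehydrogenase kinases, which inhibit the conversion of pyruvate to acetyl-CoA, PDK2, PDK3, PDK1 and PDK4 held 45.3% ± 1.61, 28.4% ± 1.03, 24.1% ± 0.312 and 2.20% ± 0.895, and 38.6% of the exon length of PDK2 overlaps SAMD14 on the opposite strand.

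**Figure D4:**
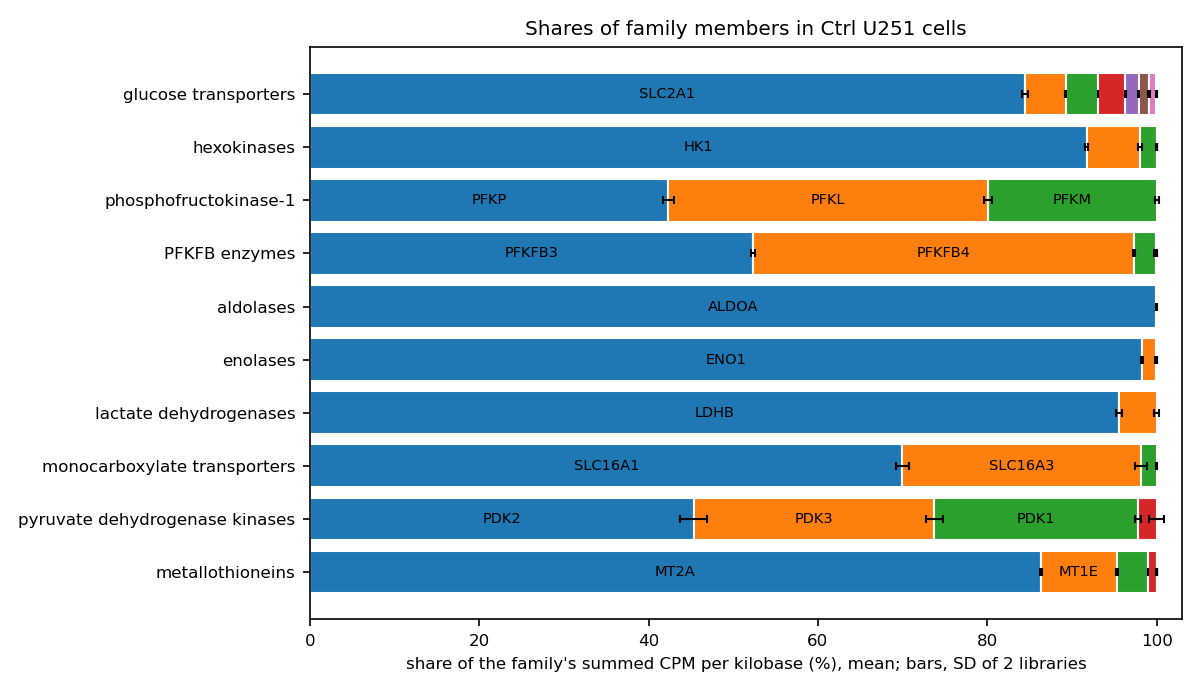
Share of each member in the summed CPM per kilobase of its family, as stacked horizontal bars in percent, with error bars for the SD of the 2 Ctrl libraries. A single gene fills most of the bar for aldolases (ALDOA), enolases (ENO1), lactate dehydrogenases (LDHB), hexokinases (HK1), metallothioneins (MT2A) and glucose transporters (SLC2A1), while phosphofructokinase-1, the PFKFB enzymes and the pyruvate dehydrogenase kinases are shared among several genes.

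HIF1A, the hypoxia-inducible transcription factor whose protein is controlled by oxygen, had 746 and 736 CPM, or 144 CPM per kilobase, and EPAS1 (HIF-2 alpha) stood at 7.19 CPM per kilobase. Of 16 genes of oxygen sensing, 15 were listed and 14 reached 1 CPM. The hypoxia-inducible enzymes CA9 and CA12 had means of 2.78 and 0.402 CPM, and 35.7% of the exon length of CA9 overlaps ARHGEF39. The prolyl hydroxylases EGLN1, EGLN2 and EGLN3, which mark HIF proteins for destruction, stood at 12.2, 10.3 and 3.68 CPM per kilobase.

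The pentose phosphate pathway makes NADPH and ribose from glucose. All 8 listed genes of 9 reached 1 CPM, led by TKT (transketolase) at 150 CPM per kilobase. All 24 genes of the TCA cycle list were listed and 21 reached 1 CPM. MDH2 was the highest at 75.4 CPM per kilobase, and the cytosolic malic enzyme ME1, with 11 and 9 counts, ME3 and OGDHL were below 1 CPM. Of 7 gluconeogenic genes, 4 were listed and 3 reached 1 CPM, and PCK1, the cytosolic form of PEPCK, had 1 count in each library while the mitochondrial form PCK2 had 16.9 CPM.

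Transporters of glutamine and other amino acids were high, and the gene of glutamine synthesis was below the median listed gene per kilobase. Of 16 on the list, 14 were listed, 13 reached 1 CPM and 9 reached 100 CPM. SLC7A5 and SLC1A5, transporters of large neutral amino acids and of glutamine, stood at 104 and 91.5 CPM per kilobase. SLC7A11, the cystine importer, had 290.3 and 288 CPM. GLUL (glutamine synthetase), which astrocytes express strongly, had 19.7 and 20.2 CPM. Per kilobase GLUL stood at 1.58 ± 0.0259 (SD, n = 2), against 3.53 for the median listed gene. Its CPM was near the median of 19.9, and it has 4 annotated pseudogenes. All 13 listed genes of 14 in serine and one-carbon metabolism reached 1 CPM, from TYMS (thymidylate synthase) at 168 CPM per kilobase to GLDC at 0.179.

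Of 22 genes of lipid synthesis and uptake, all were listed, 18 reached 1 CPM and 9 reached 100 CPM. ELOVL5, SCD and ACLY, enzymes of fatty acid elongation, desaturation and precursor supply, stood at 137, 88.8 and 62.7 CPM per kilobase. FABP5, a fatty acid carrier, had 0 counts in both libraries, FABP3 had 0 and 1 counts, and FABP7, the carrier of radial glia, had 34.5 CPM. FABP5 has 16 annotated pseudogenes, and their part in its count was not tested.

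Redox genes were broadly on. Of 25, 20 were listed, 19 reached 1 CPM and 13 reached 100 CPM, where 78.0% and 14.9% of all listed genes did. Their median was 73.8 CPM per kilobase against 3.53 for all genes. PRDX1, a peroxiredoxin, and NQO1, a quinone reductase and target of NRF2, stood at 432 and 235 CPM per kilobase, and 29.8% of the exon length of PRDX1 overlaps MMACHC. GSTM1, a glutathione transferase, had 0 and 1 counts. Of the metallothioneins, metal-binding proteins, 6 of 11 were listed, MT2A held 86.3% ± 0.114 of the summed level, and MT1G had 0 counts in both libraries. Of 17 aldehyde and aldo-keto enzymes, all were listed and 13 reached 1 CPM, with AKR1B1 highest at 92.5 CPM per kilobase. ALDH1A3, a marker of mesenchymal GBM stem cells, had 41.7 CPM and ALDH1A1 had 0.0915 CPM. The 14 genes of NAD and nucleotide salvage were all listed and 13 reached 1 CPM, led by TK1 at 57.5 CPM per kilobase. Of 8 genes of drug resistance, 7 were listed and 4 reached 1 CPM, with the exporter ABCC3 at 135 CPM and ABCB1 (P-glycoprotein) at 5 and 4 counts.

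Growth control genes were mostly expressed. Of 15 on the list, 12 were listed and 11 reached 1 CPM, where 78.0% of all listed genes did. The cyclin-dependent kinases CDK4 and CDK6 stood at 44.9 and 26.8 CPM per kilobase, with 44.2% of the exon length of CDK4 overlapping TSPAN31 on the opposite strand. RB1 and MYC stood at 18.7 and 14.2 CPM per kilobase, and TERT, the telomerase catalytic subunit, had 59 and 60 counts. CDKN2A, which encodes the inhibitor p16 and is often deleted in GBM, was the exception, with 2 and 0 counts.

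CDKN2A lies on chromosome 9 at 21967751-21995300 (GRCh37, minus strand), and the neighbours named next were expressed. MTAP, a methionine salvage enzyme at 21802635-21937650, had 85.5 and 84.6 CPM. KLHL9, at 21329664-21335403, had 40.3 and 41.1 CPM, and DMRTA1, at 22446823-22455739, had 9.34 and 8.23 CPM. Of the 12 genes of the 9p21 list, 8 were listed and 6 reached 1 CPM, the others being CDKN2A and IFNE, an interferon gene, at 0.0917 CPM. The 4 genes of the list without an entry were not analysed, so whether every neighbour of CDKN2A was expressed is not known here. Low RNA does not show whether a gene is present in the DNA, and copy number was not analysed here.

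Cancer-testis antigens, germ cell genes that tumors can switch on, were largely near 0. Of 19 on the list, 9 were listed and 2 reached 1 CPM. MAGEA6 had 75.3 and 75.7 CPM and MAGEA3, its closest relative in sequence, had 2.96 and 3.09 CPM, so that reads shared by the 2 could be split between them. Of the other 7 listed, 6 had at most 3 counts in each library. MAGEA1 and CTAG1B were at 0.110 and 0.0182 CPM.

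The last groups bear on how the RNA was captured. Of 14 replication-dependent histone genes, whose RNA mostly lacks a poly(A) tail, 11 were listed and 5 reached 1 CPM, the highest being HIST1H1C at 7.54 CPM per kilobase, and HIST1H4A had 0 counts in both libraries. Of 8 long nuclear RNAs and small RNA hosts, 7 were listed and 6 reached 1 CPM, with RPPH1 highest, MALAT1 at 373 and 368 CPM and NEAT1 at 443 and 449 CPM, while RMRP had 0 counts in both. How RNA was selected before library construction is not given in the sources used here, so the level of RNA without a poly(A) tail cannot be read from these counts.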

How the data were processed

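Total RNA of U251 cells was sequenced on an Illumina instrument, and the authors deposited a single table of whole-number counts per gene, without normalization. The submitters' processing notes name CASAVA, TopHat, Cufflinks and DESeq2 with the build hg19, and the study's methods place alignment with TopHat before counting with Cufflinks. Versions, the gene annotation, strand setting and treatment of reads with several matches are not given in the sources used here. The members and gene lists were chosen with earlier results of these data known.

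Only the Ctrl columns (27405629 and 27221921 counts, n = 2) were used, and no test was made. Counts were divided by the library total of listed genes (CPM), and by the union of exons in GENCODE 44 on GRCh37 for values per kilobase, with pandas 2.3.3 and NumPy 2.4.6 under Python 3.11.15. A gene was taken as expressed at a mean of 1 CPM or more, and 3 counts was the floor. The agreement of the libraries was a chi-square over genes with at least 10 counts in both together, and this step was tested on simulated data. Errors are the SD over the 2 libraries, and total counts limit the precision of low genes. Of 15575 identifiers, 15560 matched a gene model. Genes were named by rule: the 20 with the highest CPM, the 20 with the highest CPM per kilobase, the 5 with the largest chi-square between the libraries and, in each list, the highest per kilobase, those at 0 in both libraries and those needed for their role, and some genes that meet this rule are not reported here. Alternatives were TMM and upper-quartile scaling (edgeR 4.0.16, R 4.3.3), other detection levels, longest-transcript length, other count minimums for the chi-square and leaving out each Ctrl library.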

Additional observations from a re-analysis of the deposited data

How the results depend on the processing

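No paired analysis was possible because no value here comes from a test between groups. TMM and upper-quartile scaling moved none of 640 listed members of the gene lists by more than its SD, and their largest shift was 0.0302% and 0.127% of the mean. The factors were 1.0003 and 0.9997 for TMM and 0.9987 and 1.0013 for upper quartile, and factors of 2 libraries offset each other in the mean. Scaling also leaves the order of genes within a library unchanged, so these shifts could only be small and do not bear on that order. Longest-transcript length raised the level per kilobase of 63 of 75 genes that meet the naming rule by more than its SD, at most 3.28 times. Genes at 0 counts in both libraries (291) became 633 and 650 with replicate 1 or replicate 2 left out, since fewer libraries can hold a count. Aldolases at 1 CPM or more, 1 in the main setting, became 2 with a level of 0.5 CPM and 2 with 10 counts in each library. By longest-transcript length and then without any length, the leading shares were 89.0% and 88.0% for SLC2A1, 94.7% and 93.3% for HK1, 51.1% and 40.6% for PFKP, 46.2% and 51.6% for PFKFB3, 98.6% and 98.6% for ENO1, 93.9% and 91.4% for LDHB, 64.4% and 60.9% for SLC16A1, 52.3% and 22.3% for PDK2 and 83.3% and 81.7% for MT2A, and ALDOA was at 99.9% without length. PFKL was above PFKP without length, PFKFB4 above PFKFB3 by longest transcript, and PDK3 above PDK2 without length. Chi-square per degree of freedom, 1.42, was 1.42 over genes with at least 100 counts and 1.40 over genes with at least 1. Every other count of genes or list members stayed within 1.5 times the main count. Total depth limits genes near 3 counts.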

Other observations

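The families described here were chosen after their values were seen. Of 33 listed HOX genes, which pattern the body axis behind the forebrain, 27 reached 1 CPM, a share near the 78.0% of all listed genes, with 8 of 9 in the HOXA cluster, 6 of 9 in HOXB, 7 of 7 in HOXC and 6 of 8 in HOXD. HOXB3 was the highest at 147 and 137 CPM, or 19.2 CPM per kilobase, followed per kilobase by HOXD10 at 14.8, HOXD11 at 12.9 and HOXC10 at 12.5. IRX1, another homeobox gene, stood at 42.1 CPM per kilobase. Of 14 listed SOX genes, 10 reached 1 CPM, with SOX2 and SOX9 highest at 68.7 and 62.7 CPM per kilobase.

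Of 16 listed classical and related cadherin genes, 8 reached 1 CPM, where 78.0% of all listed genes did. CDH13 and CDH4 led at 46.8 and 42.5 CPM per kilobase, followed by CDH2 (N-cadherin) at 22.5 and CDH11 at 22.4, while CDH1 had 0 counts in both libraries. Of 37 listed collagen chains, 29 reached 1 CPM, again near the 78.0% of all listed genes, and after COL1A2 the highest per kilobase were COL5A1 at 88.1, COL6A2 at 75.2 and COL6A1 at 69.7. COL17A1, a membrane collagen of epithelial hemidesmosomes, had 315 and 318 CPM, and ITGB4, its partner in those junctions, had 729 and 737 CPM. Of 20 listed keratin genes, 12 reached 1 CPM. Of 82 genes of cytosolic ribosomal proteins, 81 reached 1 CPM, and together they held 4.05% and 4.01% of the counts of the 2 libraries.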
